A study of Homo sapiens with 6 samples.

Results

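The 10 genes described here encode subunits of the AP-1 transcription factor or close relatives of them. They were taken by gene name from the 58302 genes of the deposited table, and all 10 were found once. They are the Fos genes FOS, FOSB, FOSL1 and FOSL2, the Jun genes JUN, JUNB and JUND, the Batf gene BATF3 and the small Maf genes MAFF and MAFG. RNA was sequenced from MDA-MB-231-DR cells, which were made resistant to doxorubicin and descend from MDA-MB-231, a mesenchymal line of triple-negative breast cancer. The groups were 3 control libraries and 3 libraries of cells treated with cyperotundone (CYT), a compound from sedge, and the dose and time of CYT for these libraries were not given in the sources used here. The resistant lines were kept in medium with a low concentration of doxorubicin, and 1 resistant line was sequenced, so parental cells are not compared. The labels do not say whether the 3 libraries of a group came from separate cultures, and the p-values measure the spread between these libraries, which may be technical. Values of single libraries are given in the order of replicates 1, 2 and 3.

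AP-1 is a dimer that binds DNA through the basic region and the leucine zipper of its subunits. Fos proteins need a Jun partner to bind DNA stably, whereas Jun proteins also pair with themselves. The classical AP-1 site, the TRE, has the letters TGACTCA, and the related site of CREB and ATF proteins, the CRE, has the letters TGACGTCA. Small Maf proteins lack a transactivation domain and pair with NRF2, BACH1 or Fos proteins, and BATF3 pairs with Jun proteins. FOS, FOSB and JUN are immediate early genes, whose mRNA appears soon after a stimulus and is short-lived, whereas FOSL1 (FRA-1) is known for a high and lasting level in mesenchymal breast cancer cells.

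Each control library held between 14050849 and 17770102 gene counts and each CYT library between 13056270 and 14106017. The line markers VIM, CD44, AXL, CAV1 and KRT18 summed to between 3800 and 4140 CPM (counts scaled to the TMM-normalized library size) in control and between 1780 and 1880 CPM in CYT libraries. VIM was the highest of them in each library (from 2259 to 2742 CPM in control and from 911 to 1119 CPM in CYT libraries), while CD44 overlapped between the groups. The hormone receptor and luminal genes ESR1, PGR, GATA3 and FOXA1 summed to between 6.63 and 12.7 CPM in control and between 5.8 and 12.8 CPM in CYT libraries, most of it from FOXA1 and GATA3, with ESR1 at or below 0.213 CPM. The summed CPM of 11 markers of other cell types was between 18.3 and 41.2 in control and between 7.9 and 19.3 in CYT libraries. In control libraries most of it came from CD68 (at most 23.4 CPM) and PDGFRB (at most 16.2 CPM). CD3E was at 0 and PTPRC at or below 0.494 CPM. The part of these 11 markers in the results was not tested. In these bulk libraries fewer cells of a type and less RNA per cell cannot be told apart. CYT replicate 2 correlated less with the other CYT libraries (r = 0.917 and 0.915 across genes on the log2 scale) than these did with each other (0.979), and values without it are given where they change the call of a member.

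The bases before the start of FOSB, FOS and JUND are shown because FOSB and FOS gave the rises and JUND the Jun call described below. The sequences are from RefSeq on GRCh38.p14, and 8 of the 10 genes were matched. FOSL1 and BATF3 were not matched. The FOSB window lies at chr19:45467746-45467994 on the plus strand, the FOS window at chr14:75278578-75278773 on the plus strand and the JUND window at chr19:18281623-18281872 on the minus strand. Bases that lie past the gene start of GENCODE release 29 were left out, which shortens FOS to 196 bases and FOSB to 249 bases. Each is written 5′ to 3′ and capitals mark the CRE, the shorter letters TGACG on either strand and the TATA box TATAAA.
FOSB: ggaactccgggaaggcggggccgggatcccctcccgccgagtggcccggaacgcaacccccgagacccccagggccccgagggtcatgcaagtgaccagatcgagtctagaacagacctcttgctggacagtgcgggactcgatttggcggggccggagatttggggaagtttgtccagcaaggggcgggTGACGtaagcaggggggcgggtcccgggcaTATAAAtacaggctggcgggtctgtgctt
FOS: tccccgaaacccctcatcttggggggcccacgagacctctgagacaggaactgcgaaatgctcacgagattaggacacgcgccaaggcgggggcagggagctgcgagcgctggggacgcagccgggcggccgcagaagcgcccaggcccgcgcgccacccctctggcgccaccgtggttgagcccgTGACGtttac
JUND: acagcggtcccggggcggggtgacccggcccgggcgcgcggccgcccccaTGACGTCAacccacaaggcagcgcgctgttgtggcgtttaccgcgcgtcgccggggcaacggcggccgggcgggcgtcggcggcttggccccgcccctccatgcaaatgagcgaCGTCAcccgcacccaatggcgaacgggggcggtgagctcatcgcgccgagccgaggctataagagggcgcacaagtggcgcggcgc

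FOSB held TGACG from base -60 to base -56 and TATAAA from base -30 to base -25, counted from its RefSeq start. FOS held TGACG from base -64 to base -60 and, in the part not shown, TATAAA from base -33 to base -28. JUNB was the only other of the 8 windows with TATAAA, and 10.7% of all 35114 RefSeq windows of this length hold these letters. TGACG was found in 7 of the 8 windows, against 21.2% of all windows, and overlaps the full CRE where that is present. The letters hold a CpG, and the 8 windows had a GC content from 62.0 to 74.8%, against a median of 58.0% over all windows. The full CRE was found in JUND, from base -200 to base -193, and in MAFF, against 1.65% of all windows. The TRE was in 0 of the 8 windows and in 4.2% of all windows, and the serum response element (CArG box) was in 0 of the 8 and in 1.16% of all, which says only that these letters are not in the windows. JUN held a variant, TGACATCA, from base -67 to base -60, against 2.38% of all windows. The windows of JUN, FOSL2 and MAFF lie inside the gene as GENCODE release 29 draws it, since RefSeq places these starts further downstream. A match of letters is a description of the sequence and not a measured binding site.

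The Fos genes did not all move the same way after CYT treatment. FOSB and FOS rose, FOSL1, FOSL2 and JUND fell, and JUN, JUNB, BATF3, MAFF and MAFG did not pass the test. CYT libraries were tested against control libraries with edgeR's quasi-likelihood test on the 15572 genes that passed a filter on low counts, all 10 members among them. A gene was called with an adjusted p under 0.05 (Benjamini-Hochberg over these genes) and an absolute log2 fold change over 1. By this rule 2 of the 10 members were called higher and 3 lower, beside 15.2% higher and 12.2% lower over all genes tested. The calls of FOSL2 and JUND were lost in 4 and 6 of 13 alternative fits. The median log2 fold change was -0.37 over the members and 0.0064 over all genes tested, and 6 of the 10 members had an unadjusted p under 0.05, as had 40.9% of all genes tested.

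**Figure D1:**
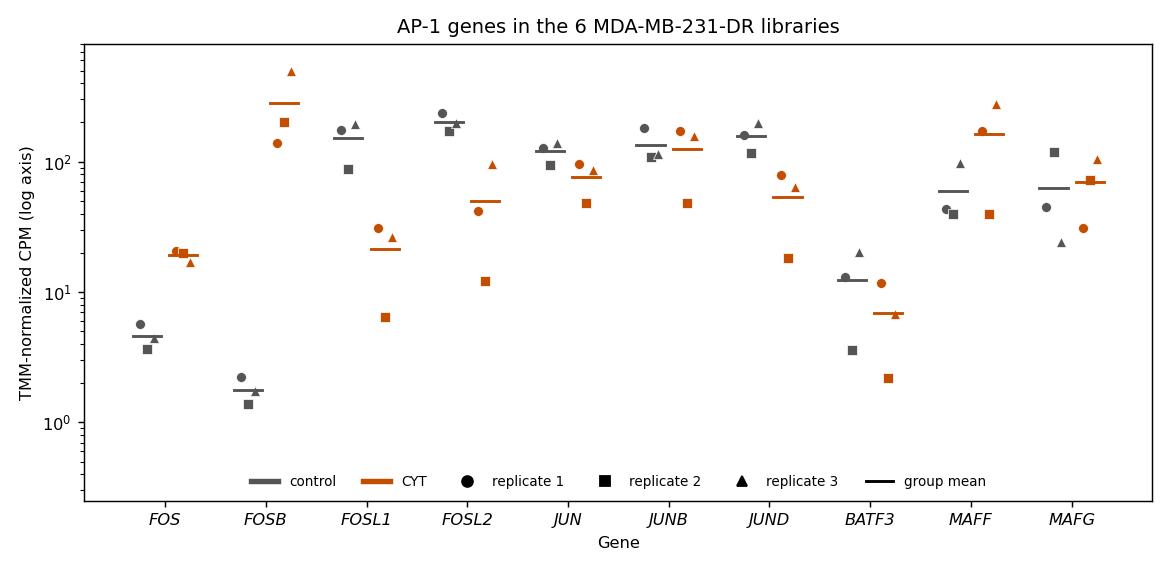
TMM-normalized CPM of the 10 AP-1 genes on a log axis, with a point for each library, its shape for the replicate number and a bar for the group mean (n = 3 per group). The CYT points of FOS and FOSB lie above all control points, those of FOSL1, FOSL2 and JUND lie below, and in the other 5 genes the groups overlap.

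FOSB (ENSG00000125740, chromosome 19 from 45467995 to 45475179, plus strand, GRCh38) encodes a Fos subunit that is nearly silent in unstimulated cells. Its raw counts were 36, 26 and 24 in the control libraries and 1986, 2820 and 6283 in the CYT libraries. The level was 1.78 ± 0.427 CPM (SD, n = 3) in control and 280.0 ± 192 CPM (SD, n = 3) in CYT-treated cells. The lowest CYT library was 62.8-fold above the highest control library, and the CYT libraries themselves differed by up to 3.56-fold. The log2 fold change was 7.29 (standard error, SE, 0.61, adjusted p = 0.000312 by edgeR), a fitted 156.8-fold rise. Of the 99 tested genes with a larger log2 rise, 0 reached the mean CPM of FOSB in CYT-treated cells. FOSB lies within introns of ERCC1, a DNA repair gene of the opposite strand, and their exons share 0 bases. ERCC1 counts fell from between 1317 and 2449 in control to between 419 and 903 in CYT libraries (log2 fold change -1.22, adjusted p = 0.0480, same test).

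FOS (ENSG00000170345, chromosome 14 from 75278774 to 75282230, plus strand), the founding member of the family, was also low in control cells. It had 92, 69 and 62 counts in the control libraries and 294, 278 and 213 counts in the CYT libraries. The level rose from 4.61 ± 1.02 CPM to 19.2 ± 1.98 CPM (SD, n = 3), and the 3 CYT libraries lay within a 1.23-fold range. The log2 fold change was 2.05 (SE 0.33, adjusted p = 0.00237 by edgeR). All CYT libraries were above all control libraries in FOS and FOSB, 2 of the 10 members, and 23.4% of all genes tested had such a separation upward. In 5 of the 10 members the groups did not overlap in either direction, as in 46.1% of all genes, so neither share stands apart from that of all genes. For each of these 5 genes alone the exact two-sided permutation test gave p = 0.1, the smallest that 3 against 3 libraries allow.

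FOSL1 (ENSG00000175592, chromosome 11 from 65892049 to 65900573, minus strand) encodes FRA-1, a Fos subunit that lacks the transactivation domain of FOS. It had 2800, 1664 and 2699 counts in the control libraries and 442, 91 and 330 counts in the CYT libraries. The level fell from 152 ± 55.9 CPM to 21.3 ± 13.1 CPM (SD, n = 3). The log2 fold change was -2.84 (SE 0.57, adjusted p = 0.00580 by edgeR), and the lowest control library was 2.84-fold above the highest CYT library. CYT replicate 2 was the lowest library of all, and without it the log2 fold change was -2.39 (adjusted p = 0.00164, same test).

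FOSL2 (ENSG00000075426, chromosome 2 from 28392448 to 28417312, plus strand) encodes FRA-2, the other Fos subunit without that domain. Its level was 234, 173 and 197 CPM in the control libraries and 41.5, 12.2 and 95.5 CPM in the CYT libraries, so that the CYT libraries differed by up to 7.80-fold. It fell by 2.02 on the log2 scale (SE 0.60, adjusted p = 0.0323 by edgeR), and the log2 fold change ranged from -2.90 without CYT replicate 3 to -1.55 without CYT replicate 2. The call was lost without control replicate 1, 2 or 3 (adjusted p = 0.0873, 0.0518 and 0.0762) or CYT replicate 1 (0.0904). FLJ31356, an antisense gene that overlaps the FOSL2 locus outside its exons, had 0, 2 and 0 counts in control and 18, 43 and 41 counts in CYT libraries. The counting is not stated to use strand, so reads of overlapping genes on opposite strands cannot be told apart.

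Among the Jun genes, JUND (ENSG00000130522, chromosome 19 from 18279760 to 18281622, minus strand), the Jun subunit usually expressed steadily in resting cells, was called lower. Its level was 160, 117 and 197 CPM in the control libraries and 79.3, 18.4 and 64.0 CPM in the CYT libraries. The groups did not overlap, and it fell by 1.55 on the log2 scale (SE 0.49, adjusted p = 0.0415 by edgeR). The call lay close to the threshold. It was lost with upper-quartile normalization (adjusted p = 0.0563), with only genes of at least 5 CPM (0.0583), without control replicate 1, 2 or 3 (0.0960, 0.0521 and 0.132) and without CYT replicate 3 (0.0843).

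JUN (ENSG00000177606, chromosome 1 from 58780788 to 58784327, minus strand), the main partner of Fos proteins, was not called (log2 fold change -0.65, SE 0.34, adjusted p = 0.182 by edgeR). Its level was 127, 94.8 and 138 CPM in the control libraries and 95.4, 48.1 and 87.1 CPM in the CYT libraries. CYT replicate 1 was just above control replicate 2, so the groups overlapped, although each CYT library lay below the control library of its number. With the replicate number as a block JUN was not called either (log2 fold change -0.69, adjusted p = 0.0507 by edgeR). JUNB (ENSG00000171223, chromosome 19 from 12791496 to 12793315, plus strand) had 180, 108 and 115 CPM in control and 173, 48.5 and 157 CPM in CYT libraries. It was not called either (log2 fold change -0.09, SE 0.46, adjusted p = 0.901, same test), and its sign turned with upper-quartile normalization (0.061), with only genes of at least 5 CPM (0.0099), without control replicate 1 (0.18) and without CYT replicate 2 (0.31). JUNB shares 259 exonic bases with HOOK2 on the opposite strand, which had between 176 and 429 counts in a library.

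The small Maf genes and BATF3 varied widely among replicates. MAFF (ENSG00000185022, chromosome 22 from 38200767 to 38216511, plus strand), a small Maf gene known to respond to stress, had 43.5, 39.8 and 97.0 CPM in control and 173, 39.6 and 278 CPM in CYT libraries. CYT replicate 2 lay below the lowest control library while the other CYT libraries lay above the highest. MAFF was not called (log2 fold change 1.44, SE 0.63, adjusted p = 0.113 by edgeR). Leaving out CYT replicate 2 gave a call (log2 fold change 1.91, adjusted p = 0.00658), and so did the replicate number as a block (1.18, adjusted p = 0.0356) and DESeq2 (1.48, adjusted p = 0.0386). It was not called in the other 10 fits, with 0.82 without CYT replicate 3 (adjusted p = 0.389) at the low end and 1.97 without control replicate 3 (0.0915) at the high end. MAFG (ENSG00000197063, chromosome 17 from 81918270 to 81927714, minus strand) had 44.8, 119 and 24.1 CPM in control and 31.2, 72.5 and 105 CPM in CYT libraries, and it was not called (log2 fold change 0.15, SE 0.60, adjusted p = 0.876, and 1.06 without control replicate 2, adjusted p = 0.186). The control libraries of MAFG differed by 4.96-fold. It shares 105 exonic bases with SIRT7 on its own strand and 224 with AC145207.8 on the other. MAFG-DT, which starts 115 bases away on the opposite strand, had 201, 186 and 248 counts in control and 100, 11 and 62 counts in CYT libraries, and it was not called (adjusted p = 0.0774). BATF3 (ENSG00000123685, chromosome 1 from 212686418 to 212699985, minus strand) had 13.0, 3.57 and 20.4 CPM in control and 11.6, 2.21 and 6.83 CPM in CYT libraries and was not called (log2 fold change -0.83, SE 0.68, adjusted p = 0.389).

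**Figure D2:**
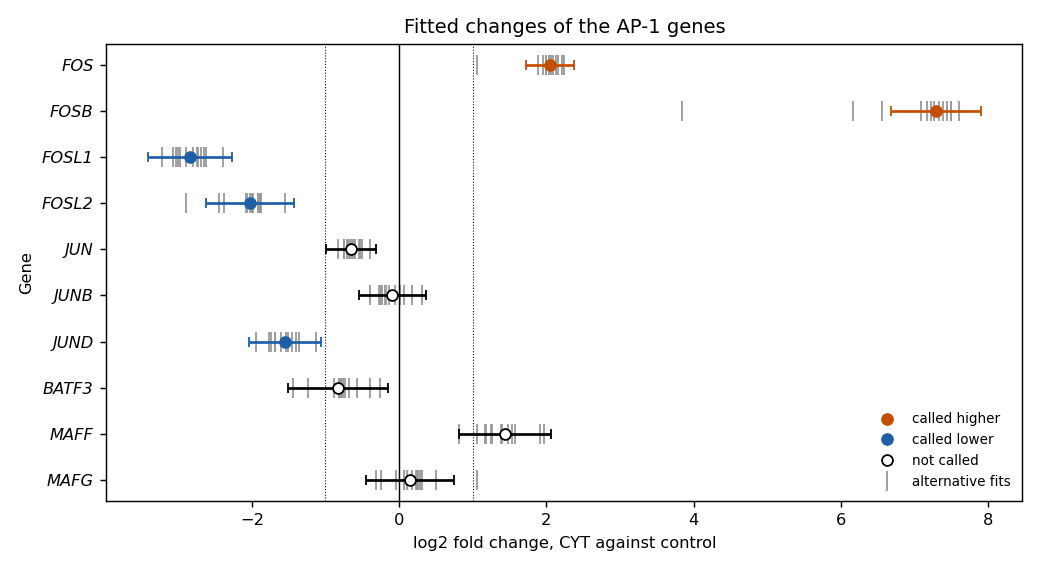
Fitted log2 fold change of each AP-1 gene, CYT against control, as a point with its standard error, coloured when called, beside grey ticks for the 13 alternative fits. FOSB at 7.29 stands far to the right, and the ticks of JUNB and MAFG lie on both sides of 0. All called genes keep their side of the dotted lines at -1 and 1 in every alternative, although FOSL2 and JUND lose their call in some.

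Libraries numbered 2 stood low in both groups. CYT replicate 2 was the lowest CYT library in 7 of the 10 members by CPM, against 43.3% of all genes tested, and control replicate 2 was the lowest control library in 9, against 39.1%. In 7 members both held, against 27.4%. On the deposited FPKM, control replicate 3 was slightly lower than control replicate 2 for JUNB (62.5 and 63.0) and control replicate 1 for MAFF (3.38 and 3.52). MAFG went the other way, with its highest control level in replicate 2. By CPM, FOS and FOSB were the genes with a CYT replicate 2 between the other CYT libraries although control replicate 2 was their lowest control library.

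Levels of different genes can be compared only per length, for which the deposited FPKM was used. In these 10 genes the length behind the deposited FPKM equals the summed length of all distinct exons of GENCODE release 29, so that exons shared by overlapping transcripts are counted repeatedly. For FOSB this length is 16506 bases, whereas its merged exons cover 5553 bases and the whole gene 7185. For JUN and JUNB, with 1 exon, both lengths are the same, at 3540 and 1820 bases. FPKM of genes with many transcripts is lower than the count per merged exonic length, and the order of levels is described on both scales.

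In control cells JUNB (72.5 FPKM), JUND (65.8), JUN (33.5) and FOSL1 (28.9) had the highest mean FPKM of the 10 genes, and FOS (0.498) and FOSB (0.106) the lowest. JUNB and JUND overlapped in their range over libraries, as did JUN and FOSL1, and at the low end BATF3, FOS and FOSB were separate from each other on this scale. In CYT-treated cells JUNB was again the highest (68.3 FPKM), followed by JUND (22.5), JUN (21.6), FOSB (16.7) and MAFF (13.3), and FOS (2.13) was the lowest on this scale. All neighbours in this CYT order overlapped. With the merged exonic length in place of the deposited one, JUND (83.5) and FOSL1 (79.0) came before JUNB (72.5) in control cells, all with overlapping ranges, and BATF3 and FOS overlapped as well. On that scale JUNB (68.3) was followed in CYT-treated cells by FOSB (49.5), JUND (28.5), MAFF (28.3) and JUN (21.6), again with overlap between neighbours. FOS (5.97) was then ninth and BATF3 (2.52) the lowest, and these did not overlap.

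Within the Fos family, FOSL1 and FOSL2 held most of the summed level in control libraries, and FOSB had the highest share in each CYT library. FOSB held 0.257, 0.270 and 0.195% of the summed FPKM of the 4 Fos genes in the control libraries and 42.3, 73.5 and 67.8% in the CYT libraries. The mean share was 0.240 ± 0.0398% in control and 61.2 ± 16.6% in CYT-treated cells (SD, n = 3). FOS had 1.13 ± 0.198% in control and 9.56 ± 4.75% in CYT-treated cells (SD, n = 3). FOSL1 had 63.2 ± 7.53% in control and 16.4 ± 12.1% in CYT-treated cells, and FOSL2 had 35.4 ± 7.31% and 12.8 ± 6.14% (SD, n = 3). None of these 4 shares overlapped between the groups. The summed FPKM of the family was 49.0, 32.9 and 53.1 in control and 20.1, 17.8 and 41.8 in the CYT libraries, and these ranges did overlap. With the merged exonic length the mean share of FOSB was 0.299% in control and 65.5% in CYT-treated cells.

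In the Jun family the share of JUND was lower and that of JUNB higher in every CYT library than in any control library. JUND held 33.4, 36.3 and 44.9% of the summed FPKM of the 3 Jun genes in control and 21.6, 16.2 and 19.7% in the CYT libraries. JUNB held 48.9, 43.9 and 34.0% in control and 61.1, 55.5 and 62.5% in the CYT libraries. The share of JUN overlapped (19.5 ± 1.66% and 21.2 ± 6.19%, SD, n = 3). Of the small Maf genes, MAFK, the third member of that family, held 25.9 ± 5.34% of the summed FPKM in control and 12.9 ± 4.64% in CYT-treated cells without overlap, whereas MAFF and MAFG overlapped. In the exact two-sided permutation test each of the 7 shares without overlap had p = 0.1, the smallest possible, and the 13 shares and sums tested had adjusted p-values from 0.186 upward. A share does not depend on the scaling between libraries, and within a family it falls when another member rises.

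**Figure D3:**
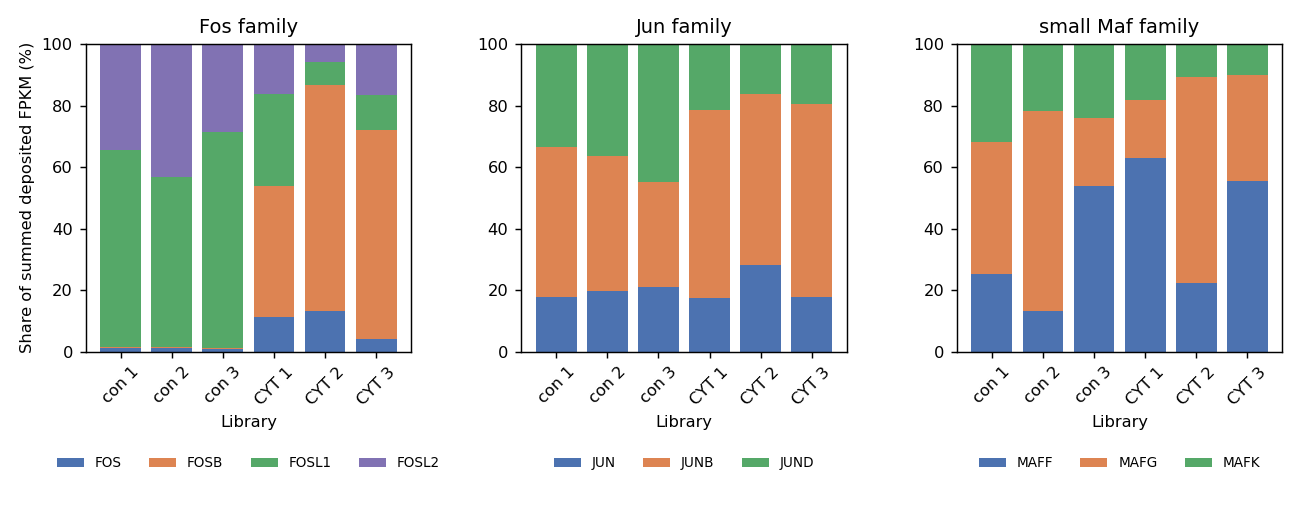
Share of each gene in the summed deposited FPKM of the Fos, Jun and small Maf families, as stacked bars for the 3 control (con) and 3 CYT libraries. FOSB is barely visible in control bars and takes between 42.3 and 73.5% of the Fos bars after CYT treatment, and JUND takes less of the Jun bars in every CYT library than in any control library.

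Other genes of the AP-1 network were described from lists written by hand. The lists were chosen with earlier results of these data known and no set test was run, so their counts are a description only. Among 15 tested further bZIP genes (ATF, BATF, CREB5, JDP2, other Maf, NRL, NFE2-related and BACH genes), 5 were called higher and 0 lower by edgeR, beside 15.2% higher and 12.2% lower over all genes, with a median log2 fold change of 0.27. DESeq2 also called 0 lower, 0 were lower at an unadjusted p under 0.05, and 1 was called lower without CYT replicate 2. ATF3, a stress-induced partner of Jun proteins, rose from between 7.83 and 14.8 CPM to between 37.4 and 136 CPM (log2 fold change 2.87, SE 0.51, adjusted p = 0.00349 by edgeR). MAFA, a large Maf factor with a transactivation domain, rose with a log2 fold change of 3.77 from a control level of 3.01 ± 1.21 CPM (SD, n = 3). The dimer partners ATF2 (0.64), BACH1 (0.51), JDP2 (-0.38), NFE2L2 (-0.22) and MAFK (-0.46) were not called, with adjusted p-values from 0.241 to 0.740. NFE2L1, a relative of NRF2 that also pairs with small Maf proteins and was named after its values were seen, rose with a log2 fold change of 1.69 (adjusted p = 0.00408 by edgeR), with 231, 154 and 301 CPM in control and 743, 708 and 758 CPM in CYT libraries. BATF had 3 counts in CYT replicate 3 and 0 elsewhere and was not tested.

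The immediate early genes outside AP-1 split into both directions. Of 23 tested, 9 were called higher and 6 lower, beside 15.2% and 12.2% of all genes, with a median of 0.29. EGR3 and EGR2, zinc finger factors of the early growth response, rose with log2 fold changes of 5.57 (SE 0.47, adjusted p = 0.000312 by edgeR) and 4.12, and NR4A3, an orphan nuclear receptor, rose by 3.60. CYR61, a secreted matrix protein and a target of YAP, fell from between 1734 and 2802 CPM to between 57.2 and 82.9 CPM, and it fell by 5.02 on the log2 scale (SE 0.35, adjusted p = 0.000188, same test). IER3 and CTGF fell by 2.68 and 2.58. The list shares ATF3 with the bZIP list, DUSP1 with the targets, SRF with the upstream factors and ZFP36 with the binders of AU-rich elements.

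Genes known from other cells as AP-1 targets were more often called lower than higher, 12 against 2 of 33 tested, beside 12.2% lower and 15.2% higher over all genes. Their median was -0.62, and the number called higher was 0 without control replicate 3, 1 without control replicate 1 or CYT replicate 3 and 3 without CYT replicate 2. ITGB4, an integrin chain, fell by 3.10 (SE 0.36, adjusted p = 0.000748 by edgeR), and EGFR, a growth factor receptor, fell by 2.65. CSF2, a cytokine gene, fell from between 16.0 and 30.2 CPM to between 1.83 and 4.48 CPM. MMP3, a matrix protease, rose with a log2 fold change of 3.14 from at most 0.426 CPM in control to between 1.75 and 2.85 CPM, and CXCL8, a chemokine, rose with one of 1.49 from between 31.1 and 76.6 CPM to between 105 and 212 CPM. Which of these genes AP-1 binds in these cells was not measured.

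Among 28 tested kinases and factors upstream of AP-1, 0 were called higher and 7 lower in edgeR's test, beside 15.2% and 12.2% of all genes, with a median of -0.27. At an unadjusted p under 0.05, 1 was higher, and 1 was called higher by DESeq2, with the replicate block, with upper-quartile normalization, with only genes of at least 5 CPM and without control replicate 2. The number called lower was 2 without control replicate 1, 3 without control replicate 3 or CYT replicate 1 and 4 without CYT replicate 3. It was 4 with limma on log2(FPKM + 1), 5 with upper-quartile normalization or only genes of at least 5 CPM and 9 with the replicate block. MAP2K7, a kinase that activates JNK, fell by 2.36 (SE 0.46, adjusted p = 0.00530 by edgeR). MAP2K4, which also activates JNK and was named after its values were seen, was not called (0.67, SE 0.40, adjusted p = 0.236 by edgeR). MAP2K5, which activates ERK5, fell by 1.92 and MRTFB, a cofactor of SRF, by 1.96. MRTFB overlapped between the groups, since control replicate 3 had 2.66 CPM against 13.1 and 16.9 CPM in the other control libraries.

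**Figure D4:**
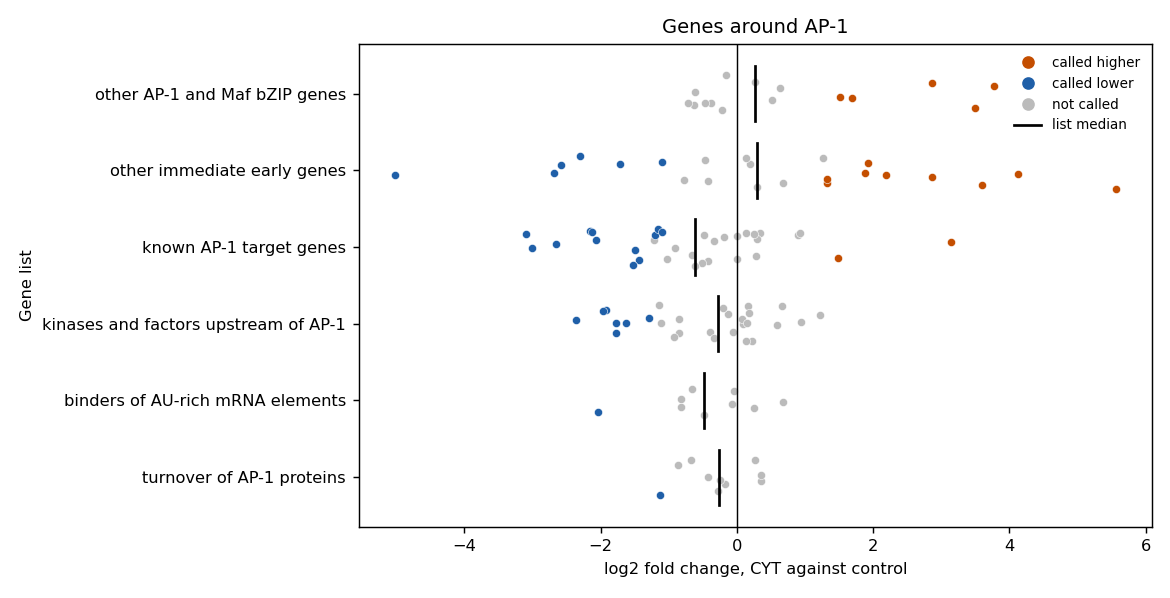
Log2 fold changes, CYT against control, of the tested genes in 6 lists around AP-1, 1 point per gene, coloured when called, with a bar at the list median. Called bZIP genes lie on the right, called upstream kinases and factors on the left, and immediate early genes on both sides, from CYR61 at -5.02 to EGR3 at 5.57.

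By pattern over the 6 libraries, the protein-coding genes most like FOSB were CD72, ZSWIM3 and GATM, with Pearson r of 0.999, 0.999 and 0.998 on the log2(CPM + 1) scale. Those most like FOSL2 were RPS6KA4 (0.998), TMEM186 (0.997) and TXNRD2 (0.996). The points are 2 groups of 3 libraries, and 1073 of 12754 genes had r over 0.9 with FOSB, so many genes share this pattern.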

How the data were processed

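RNA of 3 control and 3 CYT-treated MDA-MB-231-DR libraries was sequenced on an Illumina NovaSeq platform after mRNA separation. The authors filtered out reads of low quality, adapters and rRNA and used Hisat2 for alignment, and the submitters' processing notes name hg38. They deposited raw counts per gene and FPKM values, for which the methods name Stringtie. The counting program and its use of strand are not given in the sources used here, and 0 columns of sample values were left unmapped. Gene loci matched GENCODE release 29 for 97.5% of 58039 shared identifiers and for all 10 members.

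For the tests, edgeR 4.0.16 (R 4.3.3) was run on the raw counts. Libraries were scaled by TMM, low genes were removed by filterByExpr with a minimum count of 10, and the quasi-likelihood fit had no replicate term. The SE is the log2 fold change over the root of F. Shares were tested with scipy 1.17.1. The alternatives were upper-quartile scaling, a replicate block, DESeq2 1.42.0, limma 3.58.1 on log2 FPKM with a pseudocount of 1 or 0.1, all genes unfiltered, genes with 5 CPM or more on average, the adjusted p alone, another length unit and leaving out each library. The merged exonic length was added after the data were seen. The members and lists were chosen with earlier results of these data known. Named genes are the members, their overlapping or divergent neighbours, listed dimer partners, and the 3 called genes of each list with the largest rise and fall. Of these, 1 is not reported here.

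Deviations from the group means correlated between libraries of the same number (r = 0.267, 0.536 and 0.144 across genes for replicates 1, 2 and 3). Control 1 with CYT 3 reached 0.388 and control 3 with CYT 1 reached 0.236, both above the values of the same numbers. Pairing was thus seen for replicate 2 only and otherwise rests on the numbers in the labels. The replicate block was therefore kept as an alternative and not as the main fit. In simulated counts of 15572 genes with 200 genes moved up or down by 2 on the log2 scale, edgeR recovered 114, and 8.07% of its calls were false, against 16.9% for DESeq2. These calls used the adjusted p alone. The simulation held no replicate effect and moved far fewer genes than were called in the data, so its false share does not describe the calls reported here. Depth was between 13056270 and 17770102 counts per library, and as few as 24 counts lie behind a control value of FOSB.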

Additional observations from a re-analysis of the deposited data

How the results depend on the processing

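FOSB, FOS and FOSL1 kept their direction and their call in all 13 alternative fits. Their log2 fold changes ranged from 3.84 to 7.61, from 1.06 to 2.24 and from -3.22 to -2.39, and the smallest rises came from limma with a pseudocount of 1 FPKM. FOSL2 kept its call in 9 and JUND in 7 of the 13 fits. The 3 members called lower became 2 with upper-quartile scaling or a minimum mean of 5 CPM, and from 1 to 3 when a library was left out, the lowest without control replicate 1, 2 or 3. The 2 members called higher became 3, with MAFF, in 3 settings. JUNB changed sign with upper-quartile scaling (0.061), a minimum mean of 5 CPM (0.0099), without control replicate 1 (0.18) and without CYT replicate 2 (0.31, in a range from -0.39), and MAFG did so without control replicate 1 (-0.044), control replicate 3 (-0.24) or CYT replicate 3 (-0.31).

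Over all genes, 2373 were called higher and 1901 lower. A minimum mean of 5 CPM, which tests fewer genes, left 1392 higher, and limma on log2(FPKM + 1) gave 1265 higher and 1110 lower. Leaving out a library gave from 1563 to 2471 higher and from 1167 to 2269 lower, the lowest without control replicates 3 and 1. Upper-quartile normalization shifted the median of all genes to 0.16 and no filter to 0.41. With the replicate block 3 members were called higher and 3 lower, and the block changed no other call of a member than that of MAFF. Over all genes it gave 2590 higher and 2421 lower. In the other lists, 15 genes were called higher and 26 lower, 11 and 21 with limma on log2(FPKM + 1), and from 10 to 16 and from 18 to 28 without a library.

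The mean difference in summed FPKM of the Fos family, -18.4, was -35.1 with the merged exonic length, which was chosen after seeing the data and divides by shorter lengths. The difference in the share of FOSB, 61.0 percentage points, ranged from 54.8 to 70.4 without a library. That of JUN in its family, 1.62, was -1.95 without CYT replicate 2, and that of MAFG, -3.18, ranged from -16.7 without CYT replicate 2 to 7.71 without control replicate 2. Depth limits FOSB and FOS in control cells, with at most 92 counts in a library.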

Other observations

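Genes that act on AP-1 mRNA and protein were also measured. Of 9 tested genes for binders of AU-rich mRNA elements, which shorten or extend the life of immediate early mRNA, 1 was called lower and 0 higher by edgeR, beside 12.2% and 15.2% of all genes (2 and 0 at an unadjusted p under 0.05, 1 and 0 by DESeq2), with a median log2 fold change of -0.48, and 3 were called lower without CYT replicate 2. The called gene was HNRNPD (AUF1), with a log2 fold change of -2.04 (SE 0.37, adjusted p = 0.00362 by edgeR), from 137, 88.2 and 143 CPM in control to 42.9, 22.9 and 24.0 CPM in the CYT libraries. Of 10 tested genes for the turnover of AP-1 proteins, 1 was called lower and 0 higher by edgeR, a share close to that of all genes called lower, 12.2% (3 and 0 at an unadjusted p under 0.05, 1 and 0 by DESeq2), with a median of -0.26. This was COP1, a ubiquitin ligase that acts on JUN (log2 fold change -1.13, SE 0.32, adjusted p = 0.0275 by edgeR), with 20.0, 29.2 and 22.5 CPM in control and 13.6, 9.89 and 9.30 CPM in the CYT libraries. The call of COP1 was lost with upper-quartile normalization and limma on log2(FPKM + 1) and when control replicate 1, 2 or 3 or CYT replicate 3 was left out.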
